A study of Mus musculus with 24 samples.

Results

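Lysosome and autophagy genes were followed through an ATAC-seq study of mouse embryonic stem cells in which Smad2 was knocked out and mTOR was inhibited. The group holds 47 named genes. Their measurements are all deposited intervals of open chromatin that overlap a gene body or its 5 kb on either side: 481 of 299780 intervals in untreated cells and 484 of 272268 in inhibitor-treated cells. Gene positions are those of GRCm38, the assembly that mm10, named in the submitters' processing notes, stands for. ATAC-seq measures how readily a transposase inserts adapters into chromatin, and it measures neither RNA nor protein. The cells were of the E14 line, kept in serum medium with leukemia inhibitory factor on gelatin-coated plates. Wild-type cells (WT) and the Smad2 knockout lines Smad2_KO1 and Smad2_KO2 (called clones here for short) were each sampled untreated (Ctrl) or treated for 12 hours with INK128, an mTOR inhibitor, at 200 nM (Paused). Each of the 6 groups had 4 libraries of 50000 cells. The labels name 2 knockout lines and do not say how they were made, and they do not say whether libraries of a group came from separate cultures, so p-values measure the spread between libraries, which may be technical.

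Lysosomes are acidic compartments that break down protein, lipid and sugar chains, and autophagy delivers cell contents to them. The V-ATPase, a proton pump of many subunits, acidifies the lumen, cathepsins and other hydrolases digest the cargo, and membrane proteins such as LAMP1, NPC1 and MCOLN1 protect the membrane or move lipids and ions. Autophagy starts with the ULK kinases and the Beclin 1 lipid kinase complex, proceeds through the conjugation enzymes ATG7, ATG5, ATG12 and ATG16L1, and uses lipid-bound ATG8 proteins (LC3 and GABARAP families) and receptors such as SQSTM1 to take up cargo. Active mTOR complex 1 restrains the ULK kinases and keeps the transcription factors TFEB and TFE3 in the cytoplasm. When mTOR is inhibited these factors enter the nucleus and bind promoters of many lysosome genes at a palindromic motif, the CLEAR element, whose core is TCACGTGA.

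The 24 libraries held 11456986 to 20007829 reads in their table's intervals. The labelled cell type was checked at marker genes. A start interval was present in Ctrl for 7 of 8 embryonic stem cell markers (52.1 to 467.9 normalized reads in WT, median 190.0), 5 of 5 primitive endoderm markers (15.3 to 236.6), 2 of 5 trophoblast markers and 1 of 4 fibroblast markers, so open starts alone do not set the cell types apart. At Smad2 itself the strongest interval ran from 313.2 to 410.2 normalized reads in WT and from 301.2 to 398.3 in the knockout lines (Ctrl), which says nothing about the deletion. Knockout libraries with the same replicate number differed across the clones by a chi-square per degree of freedom of 1.0161 to 1.2698 in Ctrl and 1.0013 to 1.0737 in Paused, and libraries within a clone by 1.11 to 1.43 and 1.11 to 1.48. In Paused, replicates 2 of Smad2_KO1 and Smad2_KO2 differed by no more than sampling noise (1.0013, with a noise limit of 1.00554). The total of called member intervals in Paused is therefore also given without either of these libraries. Averaging the knockout libraries of 1 number, so that 4 stand against 4 WT libraries, is given for the totals of Ctrl and Paused. Counts by start, by role and across treatments are not given in these ways.

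Members were open at their starts. The start interval of a gene is its strongest interval within 500 bases of a listed start, or, for 11 members with no listed start, its strongest within 1000 bases of the gene. A start interval was found for 44 members in Ctrl and 43 in Paused. Vps11 (HOPS tethering complex) had no interval within its window in either table and enters nothing below, and Atg7 and Ulk1 had no start interval. Averaged over 12 libraries, start intervals ran from 91.5 normalized reads at Gabarapl1, an ATG8 family gene, to 712.5 at Uvrag, a Beclin 1 partner, with a median of 228.1 in Ctrl. The median over the start intervals of all protein-coding genes was 192.9, and over all intervals 20.9. In Paused the members' median was 329.0 against 239.2 for all starts. Of the members' intervals, 70 (Ctrl) and 66 (Paused) lay inside another protein-coding gene as well.

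The CLEAR core was searched in the promoters of the members. RefSeq promoter windows (GRCm38.p6; 250 bases before to 50 after a start) were listed for 36 members and 17491 genes. CACGTG occurred in 13 of 36 members (36.1%) and in 8.91% of all genes. The longer palindrome TCACGTGA, which contains CACGTG, occurred in 8 of 36 (22.2%) and in 1.41% of all genes. A 10-letter form, which adds 1 set base on each side, occurred in 1 of 36 members (2.78%) and in 0.469% of all genes. Promoter windows were also listed for 51 of the 65 further lysosome and autophagy genes described at the end of the Results. In these the 6-letter, 8-letter and 10-letter forms occurred in 12, 3 and 2 genes (23.5%, 5.88% and 3.92%). The members' share was above that of these genes for the 6 and 8 letters. For the 10 letters, with 1 member and 2 of these genes, the counts are too small to order the shares. Of 2 further motifs, TGANTCA was found in 2 members (5.56%, all genes 8.12%) and CCAAT in 12 (33.3%, all genes 42.3%). All were searched on both strands. The shares were not tested against each other, and a match describes letters and is no evidence of binding in these cells. The windows below are shown because they hold TCACGTGA or, at Lamp1, 4 copies of CACGTG, and because the start intervals of these genes come up again under the inhibitor; Atp6v1a also holds TCACGTGA and is not shown. Each is read 5′ to 3′ on the gene's strand, with the motif in capitals.
Ctsa (chr2:164833734-164833794, plus strand): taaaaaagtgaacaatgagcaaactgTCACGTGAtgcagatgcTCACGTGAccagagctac
Cln3 (chr7:126583341-126583384, minus strand): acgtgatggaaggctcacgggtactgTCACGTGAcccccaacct
Ctsd (chr7:142387909-142387952, minus strand): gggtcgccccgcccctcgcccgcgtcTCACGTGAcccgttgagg
Mcoln1 (chr8:3500447-3500490, plus strand): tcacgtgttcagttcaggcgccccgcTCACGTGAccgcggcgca
Lamp1 (chr8:13159074-13159161, plus strand): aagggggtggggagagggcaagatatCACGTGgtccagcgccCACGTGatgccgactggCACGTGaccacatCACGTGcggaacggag
Atp6v0d1 (chr8:105566051-105566094, minus strand): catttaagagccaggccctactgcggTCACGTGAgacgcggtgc
Atp6v0e (chr17:26676372-26676415, plus strand): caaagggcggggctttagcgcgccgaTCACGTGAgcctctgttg
Gla (chrX:134601183-134601255, minus strand): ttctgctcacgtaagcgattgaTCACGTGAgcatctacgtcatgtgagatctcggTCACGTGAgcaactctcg
The capitals of Cln3, Ctsd, Mcoln1, Lamp1, Atp6v0d1 and Atp6v0e lay inside a deposited interval in both tables. Those of Gla lay upstream of its start interval, and those of Ctsa sit at the second of its listed starts (164833773), outside any interval.

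To ask how loss of Smad2 relates to accessibility at these genes, each clone was compared with WT within a treatment. An interval is called where it passed limma's test (adjusted p under 0.05 over all intervals of the table) against WT in both clones with the same sign. In Ctrl, 21 of 461 tested member intervals were called, at 15 genes, 13 higher and 8 lower in the clones. The background was 7.15% of all intervals tested (3.95% higher, 3.2% lower), against 4.56% of the members'. In Paused, 60 of 470 were called, at 27 genes, 40 higher and 20 lower, or 12.8% against a background of 13.9% (9.01% higher, 4.92% lower). Neither share was above that of intervals at large. With DESeq2 size factors as the scaling, the members' share was 3.69% in Ctrl (all intervals 7.58%) and 16.6% in Paused (all intervals 14.7%), so in Paused the order of the shares turned. The clones did not differ from each other at any member interval under limma (0 called in either treatment; 11 in Ctrl and 7 in Paused at unadjusted p under 0.05), nor under edgeR or DESeq2 (0 called by each). In Paused, libraries of the same number differed less across the clones than any libraries within a clone, and some did in Ctrl. The clones may therefore not be independent, so 0 calls between them, or a call in both, may not be agreement of separate lines. The median difference over members was 0.06 log2 in Ctrl and 0.11 in Paused, and 0.08 and 0.12 over all intervals. In bulk cells, a change in the share of cells with an open site and a change in openness per cell cannot be told apart.

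The split of the calls by direction differed between weak and strong intervals and between scalings. In Paused, member intervals averaging under 50 normalized reads gave 36 higher and 5 lower calls, and those of 50 or more gave 4 higher and 15 lower. All intervals of the table split alike, with 18913 higher and 4251 lower calls under 50 and 4564 higher and 8565 lower above. In Ctrl the members split 11 and 2 under 50 (84.6% higher), and 2 and 6 above (25% higher). All Ctrl intervals split 8558 and 4825 under 50 (63.9% higher), and 2574 and 4202 above (38.0% higher). The libraries' scaling moved the split as well. With DESeq2 size factors in place of the authors' scaling, 7 were higher and 10 lower in Ctrl, and 34 higher and 44 lower in Paused (the median difference of all Paused intervals moved from 0.12 to 0.02). Counts of direction below are relative to the authors' scaling. Among the higher calls, 2 of 13 in Ctrl and 8 of 40 in Paused had all 4 WT libraries under 10 normalized reads, so they passed the filter on low values through the clones alone. Averaging the knockout libraries by number gave 40 called member intervals in Ctrl (28 higher) and 85 in Paused (63 higher). These were 8.68% in Ctrl (all intervals 13.0%) and 18.1% in Paused (all intervals 19.8%). That call rests on 1 test of the averaged libraries and not on both clones, so it is less strict than the main call. Paused gave 43 without replicate 2 of Smad2_KO1 (9.19%, all intervals 9.79%) and 41 without replicate 2 of Smad2_KO2 (8.78%, all intervals 9.73%). In Ctrl, leaving out replicate 4 of Smad2_KO2 lowered the count from 21 to 13 (6 higher, 7 lower), or 2.84% (all intervals 6.13%).

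**Figure D1:**
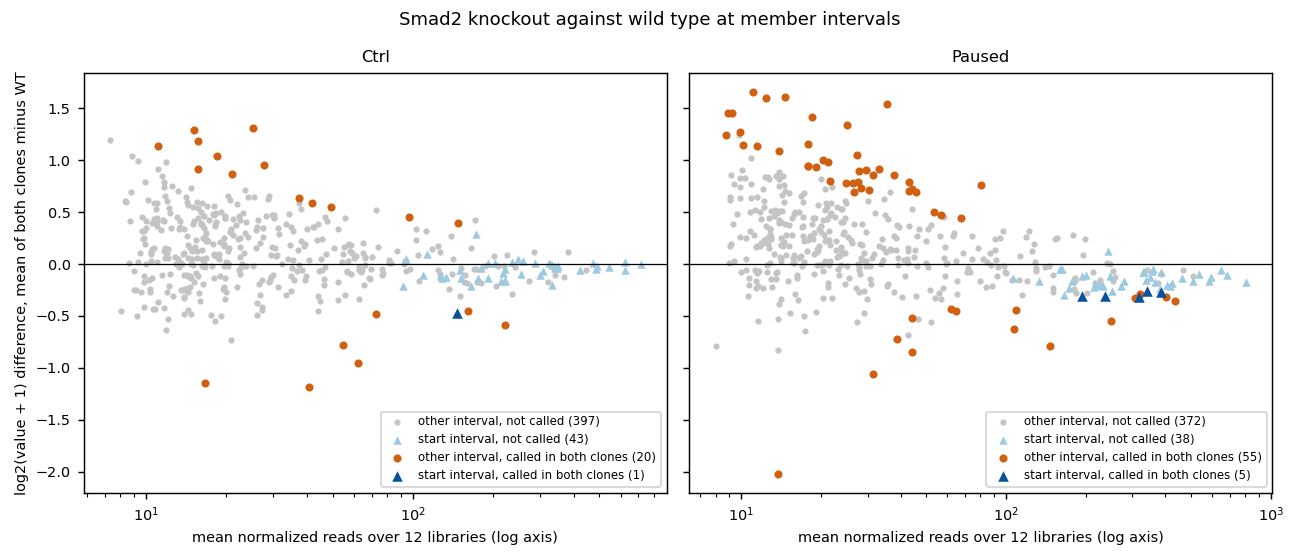
Difference between the mean of both clones and WT (y axis, log2(value + 1)) against the mean level over 12 libraries (x axis, log scale) for each tested member interval, in Ctrl (left) and Paused (right). Start intervals (triangles) sit at high levels near or below 0; intervals called higher are mostly weak, and 1 start interval in Ctrl and 5 in Paused were called, all lower.

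At the starts, few members changed and those that did were lower. In Ctrl 1 of 44 member start intervals was called, that of Lipa, the lysosomal acid lipase (background over all starts 3.83%, of which 1.2% higher and 2.63% lower). In Paused 5 of 43 were called, all lower in both clones: Gaa (acid alpha-glucosidase), Gla (alpha-galactosidase), Neu1 (sialidase), Atp6v0e (a V-ATPase subunit) and Vps18 (HOPS). The background over all starts was 14.1% (2.06% higher and 12.1% lower), so the members' share was not above it. The median start difference was -0.04 log2 in Ctrl (all starts -0.06) and -0.16 in Paused (all starts -0.13). The count depended on the scaling. In Paused 14 of 43 were lower with DESeq2 size factors (32.6%, all starts 28.4%), 14 with TMM factors (32.6%, all starts 26%), 17 with edgeR (39.5%, all starts 28.4%) and 13 with the DESeq2 test (30.2%, all starts 23.7%). With library totals 2 were lower (4.65%, all starts 9.58%). The members' share of lower starts was thus above that of all starts under those 4 settings, and below it with library totals and under the authors' scaling. None was called higher under any of these.

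The Lipa start (chr19:34527413-34527613) had 166, 185, 161 and 208 normalized reads in the 4 WT libraries, 115, 105, 155 and 142 in Smad2_KO1 and 106, 147, 118 and 152 in Smad2_KO2. Every WT library was above every knockout library. The difference was -0.49 ± 0.12 in Smad2_KO1 and -0.47 ± 0.12 in Smad2_KO2 (log2, SE; adjusted p = 0.00671 and 0.0103). It was not called in Paused. Gla, in contrast, was called in Paused and not in Ctrl; its start interval (chrX:134600982-134601182, also inside Hnrnph2) had 277, 259, 268 and 282 normalized reads in the 4 WT libraries, 245, 235, 193 and 233 in Smad2_KO1 and 209.8, 214, 201 and 225 in Smad2_KO2. Here too the groups did not overlap, with differences of -0.27 and -0.35 log2 (adjusted p = 0.0384 and 0.00649). Neu1 (chr17:34931108-34931308) likewise did not overlap, with 433 ± 31.0 in WT against 364 ± 8.56 in Smad2_KO1 and 355 ± 16.1 in Smad2_KO2 (SD, n = 4). At Atp6v0e (chr17:26676276-26676476), whose window is shown above, WT libraries spread from 295.6 to 443.7 and reached into the range of the clones, which had 296 ± 11.5 and 288 ± 10.5. Gaa (chr11:119267857-119268057) differed by -0.31 and -0.30 log2 and Vps18 (chr2:119288587-119288787) by -0.24 and -0.27, both with overlapping groups.

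These calls at starts rested on few libraries. Of 12 fits that each left out 1 library, Lipa kept its call in 10 (lost without WT replicate 4 or Smad2_KO2 replicate 1) and Neu1 in 9 (lost without WT replicate 1 or Smad2_KO1 replicate 2 or 3). Atp6v0e kept it in 8 (lost without WT replicate 1 or 4 or Smad2_KO1 replicate 1 or 3) and Gla in 7 (lost without WT replicate 1 or 4 or Smad2_KO1 replicate 2, 3 or 4). Vps18 kept it in 4 (without WT replicate 2 or 3, Smad2_KO1 replicate 4 or Smad2_KO2 replicate 4) and Gaa in 3 (without WT replicate 2 or 3 or Smad2_KO2 replicate 4). Gla, Gaa and Vps18 were not called with library totals as the scaling, and Gaa was not called with knockout libraries averaged by number. Whether these starts respond differently to Smad2 loss with and without the inhibitor was not tested, since the treatments were deposited in tables normalized separately.

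The other calls are described by the role of the gene, and the counts of each role stand against backgrounds of 7.15% of all intervals tested in Ctrl and 13.9% in Paused. Single intervals whose WT libraries were all under 10 normalized reads are pointed out, since they passed the filter on low values through the clones alone and had to differ. Called intervals, like the called starts above, were picked for their difference, so a lack of overlap with WT follows largely from the pick. Among the membrane proteins, 1 of 47 intervals was called in Ctrl and 4 of 48 in Paused. An interval inside Npc1, the cholesterol exporter mutated in Niemann-Pick disease, was called lower in both treatments and is described below with its values. Cln3, whose loss causes Batten disease, gained in the clones at a weak interval 8184 bases into the gene (chr7:126574952-126575152) in Paused. It had 4.32, 7.51, 3.24 and 3.97 normalized reads in WT against 16.1, 14.5, 17.3 and 14.9 in Smad2_KO1 and 20.0, 15.8, 21.3 and 9.85 in Smad2_KO2, and the groups did not overlap. The differences were 1.58 and 1.62 log2, with all WT libraries under 10. A second weak Cln3 interval, at position -900 from a listed start (chr7:126586617-126586817, also inside Apobr) was higher by 1.28 and 1.26 log2, with overlapping groups, and kept its call in 7 of 12 fits that left out 1 library (lost without WT replicate 1, Smad2_KO1 replicate 3 or 4 or Smad2_KO2 replicate 2 or 4). The start intervals of Lamp1, Npc1, Mcoln1, Lamp2 and Cln3 were not called in either treatment, nor was any of them higher under another scaling.

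Proteases had no called interval of 39 in Ctrl and 3 of 39 in Paused, all lower. The largest fall of any member interval lay in the flank of Ctsb, the gene of cathepsin B, at chr14:63148649-63148849, which is also inside Fdft1, an enzyme gene of sterol synthesis. It had 17.3, 12.9, 37.8 and 50.3 normalized reads in the 4 WT libraries, 3.80, 8.16, 5.18 and 2.98 in Smad2_KO1 and 7.99, 5.25, 7.86 and 5.47 in Smad2_KO2. The lowest WT library, at 12.9, was above every knockout library, although WT libraries spread widely. The differences were -2.22 and -1.82 log2. All knockout libraries were under 10, so this interval passed the filter through WT alone. The window of Ctsa, which encodes the protective protein of the sialidase, held an interval called lower at position -4779 from its start (chr2:164827993-164828193, also inside Spata25), with 133 ± 19.8 in WT against 98.0 ± 13.5 in Smad2_KO1 and 95.8 ± 9.47 in Smad2_KO2. The start intervals of Ctsd and Ctsl, which encode cathepsins D and L, did not pass the test in Paused. Ctsd differed by -0.19 and -0.21 log2 (adjusted p = 0.133 and 0.0824) and Ctsl by -0.19 and -0.18 (adjusted p = 0.0887 and 0.114). Both were called lower with DESeq2 size factors or TMM factors, by edgeR and by DESeq2.

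The other hydrolases and lipid-handling proteins had 3 called of 76 in Ctrl and 7 of 80 in Paused. Asah1, acid ceramidase, changed in both directions. In Ctrl an interval at chr8:41396658-41396858, inside the gene and also inside Frg1, had 19.2, 17.0, 30.7 and 42.1 normalized reads in the 4 WT libraries, 6.84, 16.4, 9.37 and 13.9 in Smad2_KO1 and 14.0, 10.9, 7.44 and 12.1 in Smad2_KO2. No knockout library reached the lowest WT library, and the differences were -1.14 and -1.16 log2 (adjusted p = 0.00648 and 0.00573; not called without WT replicate 4). A weak interval at chr8:41361046-41361246 was higher by 0.84 and 0.99 log2 with overlapping groups, and it was called in 4 of 12 fits that left out 1 library (without WT replicate 1 or 3, Smad2_KO1 replicate 4 or Smad2_KO2 replicate 3) and not with DESeq2 size factors, TMM factors, edgeR or DESeq2. In Paused another weak interval, at chr8:41346546-41346746, was higher by 1.58 and 1.34 log2, with 3.69 ± 0.530 normalized reads in WT against 13.0 ± 2.01 in Smad2_KO1 and 11.0 ± 2.56 in Smad2_KO2 (all WT libraries under 10). The Asah1 start, among the strongest of the members with 621 ± 74.3 in WT in Ctrl, was not called.

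V-ATPase genes had 6 called of 78 in Ctrl (4 higher) and 12 of 84 in Paused (10 higher). In Ctrl the largest was a fall 24447 bases into Atp6v1e1 (chr6:120798151-120798351), the gene of a stalk subunit. Its libraries had 52.3, 27.8, 96.4 and 98.1 normalized reads in the 4 WT libraries, 17.9, 25.7, 41.2 and 32.3 in Smad2_KO1 and 23.1, 31.9, 25.5 and 19.1 in Smad2_KO2. The WT libraries disagreed among themselves, and 1 of them lay inside the range of the clones. The difference was -1.09 ± 0.24 in Smad2_KO1 and -1.28 ± 0.24 in Smad2_KO2 (log2, SE; adjusted p = 0.00172 and 0.000277). In Paused Atp6v0d1, which encodes a membrane-sector subunit, was higher at 3 intervals inside the gene, the largest at chr8:105552131-105552331. That interval rose from 4.37 ± 2.53 in WT to 13.6 ± 2.82 in Smad2_KO1 and 15.3 ± 1.91 in Smad2_KO2, without overlap and with all WT libraries under 10. The Atp6v0d1 start interval had 461 ± 48.8, 389 ± 16.0 and 403 ± 8.50, and it passed the test in Smad2_KO1 alone (adjusted p = 0.0301 and 0.0916); with DESeq2 size factors it was called lower in both clones. Atp6v1a and Atp6v1c1 had 2 and 3 intervals called higher in Paused, and their starts were not called.

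Initiation and nucleation genes had 6 called of 115 in Ctrl and 11 of 121 in Paused. Uvrag spans a long body with 48 intervals in Ctrl and 51 in Paused, and it supplied 4 of the 5 higher calls of this role in Ctrl and 5 of the 7 in Paused. Atg13, a partner of the ULK kinases, had 1 called interval, in its flank in Paused (chr2:91669479-91669679, also inside Arhgap1). It rose from 5.40, 7.51, 7.55 and 2.65 normalized reads in WT to 16.1, 13.6, 28.5 and 14.9 in Smad2_KO1 and 17.0, 19.5, 19.1 and 24.1 in Smad2_KO2, by 1.53 and 1.69 log2, without overlap and with all WT libraries under 10. Wipi1, which encodes a lipid-binding protein of the forming autophagosome, was higher in Ctrl 4440 bases into the gene (chr11:109606849-109607049). It had 5.34, 8.96, 8.76 and 8.63 normalized reads in the 4 WT libraries, 24.8, 22.6, 28.1 and 19.6 in Smad2_KO1 and 15.0, 13.7, 14.9 and 17.1 in Smad2_KO2. The groups did not overlap and all WT libraries were under 10, although edgeR and DESeq2 did not call it, nor did limma without WT replicate 1 or Smad2_KO2 replicate 1 or 4. Its relative Wipi2 rose in Paused 29114 bases into the gene (chr5:142658598-142658798), from 8.25 ± 2.33 in WT to 22.6 ± 5.74 and 24.5 ± 4.09, while an interval further into the same gene fell. Becn1, Atg9a and Ulk1 had no called interval in either treatment.

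Conjugation genes had 3 called of 64 in Ctrl (4.69%, background 7.15%) and 13 of 61 in Paused (21.3%, background 13.9%), of which 11 were higher (18.0%, background 9.01%). Atg5, whose product joins ATG12, was higher 92451 bases into the gene in Ctrl (chr10:44360690-44360890). It had 4.27, 16.1, 12.1 and 11.9 normalized reads in the 4 WT libraries, 17.9, 17.5, 25.3 and 17.3 in Smad2_KO1 and 25.1, 29.1, 20.2 and 25.2 in Smad2_KO2. One WT library (4.27) was far below the other WT libraries, and the highest WT library (16.1) was under the lowest knockout library (17.3). The differences were 0.87 and 1.21 log2 (adjusted p = 0.0273 and 0.00199). It was not called by edgeR or DESeq2, nor by limma without WT replicate 1 or Smad2_KO1 replicate 1 or 3. Atg7, the activating enzyme of both conjugation pathways, had 4 intervals higher and 1 lower in Paused. The starts of Atg5, Atg12 and Atg16l1 were not called; that of Atg5 had 354 ± 51.6, 352 ± 29.4 and 343 ± 21.0 in Ctrl.

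Cargo receptor and ATG8 family genes had 2 called of 36 in Ctrl (5.56%, background 7.15%) and 9 of 32 in Paused (28.1%, background 13.9%), of which 6 were higher (18.8%, background 9.01%). The share of neither role was tested against the background. Sqstm1, the gene of the p62 receptor, was higher in Paused 7994 bases into the gene (chr11:50202726-50202926). There the 4 WT libraries had 9.72, 13.9, 17.3 and 7.95, Smad2_KO1 34.2, 34.4, 29.4 and 24.8 and Smad2_KO2 32.0, 38.2, 33.7 and 25.2 normalized reads. No library overlapped, and the rise was 1.31 ± 0.23 in Smad2_KO1 and 1.37 ± 0.23 in Smad2_KO2 (log2, SE; adjusted p = 0.000101 and 5.66e-05). Gabarapl2, an ATG8 family gene, had 3 intervals higher in Paused, among them chr8:111952875-111953075 (by 1.29 and 1.63 log2), where the WT libraries had 4.32, 1.07, 5.39 and 3.97, all under 10, and overlapped with the clones (not called without WT replicate 2 or Smad2_KO1 replicate 1, 2 or 3, nor by DESeq2). Strong intervals in the flanks of Gabarap (chr11:69995531-69995731) and Map1lc3b (chr8:121585468-121585668) were called lower; both were picked after their values were seen. The first had 508 ± 47.0 in WT and differed by -0.38 and -0.32 log2, and the second had 467 ± 74.2 and differed by -0.35 and -0.29. Of the HOPS genes only Vps18 was measured, with its start called in Paused as above.

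**Figure D2:**
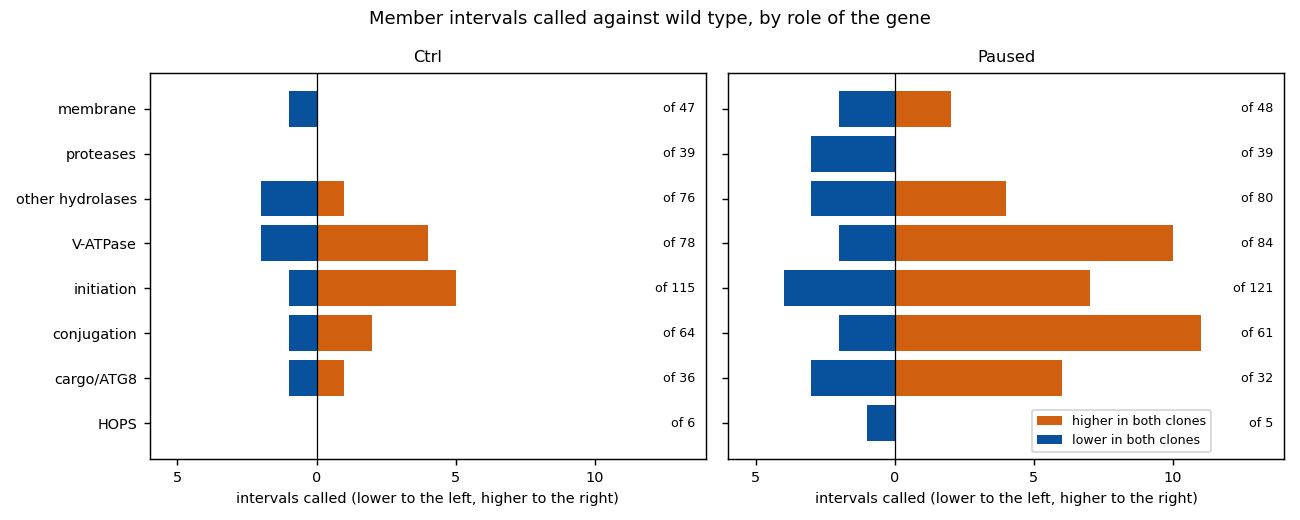
Number of member intervals called in both clones, lower to the left and higher to the right, by role of the gene, in Ctrl and Paused, with the number tested at the right edge. V-ATPase (10) and conjugation genes (11) have most of the higher calls in Paused, and the proteases have 3 lower and none higher.

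The split by role moved with the scaling. With DESeq2 size factors in Paused, V-ATPase intervals were called higher 9 and lower 5 times, conjugation 8 and 2, cargo and ATG8 genes 5 and 5, initiation 7 and 8, other hydrolases 3 and 11, membrane proteins 2 and 5, and proteases 0 and 7. In Paused, higher calls outnumbered lower ones at V-ATPase and conjugation genes under all 4 limma scalings and edgeR, and not under the DESeq2 test (4 and 4, and 2 and 2). In Ctrl the V-ATPase split of 4 and 2 became 2 and 2 with DESeq2 size factors.

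There were 11 member intervals called with the same sign in both treatments, 6 higher and 5 lower. They were 57.9% of the Ctrl calls that had a matched Paused interval (19) and 23.9% of the Paused calls that had a matched Ctrl interval (46). Over all matched intervals these shares were 59.2% (10240 of 17297) and 32.8% (10240 of 31239), so the members' shares were not above them. Each table has its own libraries, so WT and clones were measured anew in each. These intervals were picked after their values were seen. The higher ones lay inside Uvrag (3), Atg5, Atp6v1a and Atp6v1c1, and the lower ones inside Npc1, Wipi2 and Atg7, in the flank of Atp6v1d and upstream of Sqstm1.

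The Sqstm1 interval at position -2359 from its start (chr11:50213079-50213279) had 88.7, 65.4, 96.4 and 119.7 normalized reads in the 4 WT libraries, 45.3, 44.2, 62.8 and 45.0 in Smad2_KO1 and 50.1, 49.1, 45.7 and 33.2 in Smad2_KO2 in Ctrl. The lowest WT library, 65.4, was above the highest knockout library, 62.8. At its matched interval in Paused it had 144, 98.8, 156 and 164 normalized reads in the 4 WT libraries, 97.9, 103, 105 and 72.5 in Smad2_KO1 and 88.9, 103, 80.8 and 70.0 in Smad2_KO2, and 1 WT library (98.8) was within the range of the clones. The differences were -0.88 and -1.02 log2 in Ctrl (adjusted p = 0.000261 and 2.82e-05) and -0.55 and -0.70 in Paused (adjusted p = 0.00513 and 0.00062). The interval taken as the Sqstm1 start, centred 585 bases into the gene in Paused, did not part the lines. It had 234 ± 31.1, 246 ± 11.5 and 224 ± 12.1 in Ctrl and 367 ± 12.9, 366 ± 8.77 and 345 ± 24.5 in Paused.

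A strong interval 38535 bases into Wipi2 (chr5:142668019-142668219) had 315, 272, 285 and 269 normalized reads in the 4 WT libraries, 171, 183, 175 and 199.8 in Smad2_KO1 and 183, 215, 154 and 241 in Smad2_KO2 in Ctrl, without overlap. In Paused it had 316 ± 49.9 in WT against 226 ± 39.8 in Smad2_KO1 and 207 ± 36.1 in Smad2_KO2. Inside Npc1 (chr18:12216341-12216541), WT libraries had 190.1, 208, 206 and 180.1 in Ctrl, above 161, 153, 138 and 144 in Smad2_KO1 and 141, 148, 131 and 131 in Smad2_KO2. In Paused WT libraries had 217, 221, 210.4 and 173, and all 8 knockout libraries lay between 92.9 and 134.2. The Npc1 differences were -0.39 and -0.50 log2 in Ctrl and -0.80 and -0.79 in Paused. Atg7 fell 13467 bases into the gene (chr6:114684463-114684663), with differences of -0.86 and -0.70 log2 in Ctrl and -0.98 and -1.13 in Paused, and in neither treatment did the groups overlap.

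The rises at Uvrag were from weak to moderate signal. At chr7:99077332-99077532, 63712 bases into the gene, WT libraries had 6.41, 6.27, 7.67 and 7.55 normalized reads in Ctrl, all under 10 and under every knockout library (23.1, 18.5, 21.6 and 15.0 in Smad2_KO1, 24.1, 23.7, 8.50 and 20.1 in Smad2_KO2). In Paused they had 8.64, 21.5, 22.7 and 10.6 against 34.2, 58.9, 37.1 and 49.7 and 37.0, 63.0, 44.9 and 39.4. The differences were 1.35 and 1.24 log2 in Ctrl and 1.53 and 1.56 in Paused (adjusted p = 1.57e-05 and 1.23e-05). At chr7:99032374-99032574, 108670 bases in, WT had 12.3 ± 2.97 in Ctrl against 32.2 ± 2.59 and 30.9 ± 3.48, and 15.5 ± 3.18 in Paused against 32.7 ± 7.42 and 34.2 ± 8.47. The third, at chr7:98953766-98953966, was higher by 0.96 and 0.95 log2 in Ctrl and 0.93 and 0.91 in Paused. A further Uvrag interval, chr7:98924621-98924821, was called higher in Ctrl (by 1.02 and 1.26 log2) with overlapping groups. It was called in 6 of 12 fits that left out 1 library (lost without WT replicate 1, 3 or 4 or Smad2_KO1 replicate 1, 2 or 3) and not with DESeq2 size factors, TMM factors, edgeR or DESeq2. The strong Uvrag start was not called in either treatment, but was called lower in Paused with DESeq2 size factors: WT had 710.4 ± 41.3 in Ctrl, and the clones 734 ± 39.2 and 693 ± 63.5; in Paused these were 873 ± 52.7, 787 ± 29.3 and 759 ± 51.7.

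The remaining intervals of this group belong to V-ATPase genes and Atg5. In the flank of Atp6v1d, the gene of a central stalk subunit (chr12:78841854-78842054), WT libraries had 79.0, 85.1, 96.4 and 99.2 in Ctrl against 63.3, 70.9, 59.0 and 55.5 in Smad2_KO1 and 72.2, 70.1, 57.4 and 65.4 in Smad2_KO2. In Paused they had 51.8, 50.5, 78.8 and 71.5 against 41.8, 27.2, 36.3 and 40.7 and 36.0, 33.8, 43.8 and 19.7. WT was above the clones in both treatments without overlap, with differences of -0.53 and -0.43 log2 in Ctrl and -0.77 and -0.93 in Paused. Inside Atp6v1a, which encodes the catalytic subunit (chr16:44101364-44101564), WT had 27.3 ± 5.52 in Ctrl and the clones 42.8 ± 3.30 and 42.6 ± 7.47. In Paused these were 19.3 ± 2.26, 34.9 ± 4.28 and 31.0 ± 5.84. Atp6v1c1 (chr15:38690469-38690669) was higher by 0.96 and 0.76 log2 in Ctrl and 0.82 and 0.90 in Paused, the latter with overlapping groups. The Atg5 interval described above was higher by 0.92 and 0.95 log2 in Paused, where WT had 11.3 ± 1.40 and the clones 22.6 ± 5.71 and 23.4 ± 7.06.

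**Figure D3:**
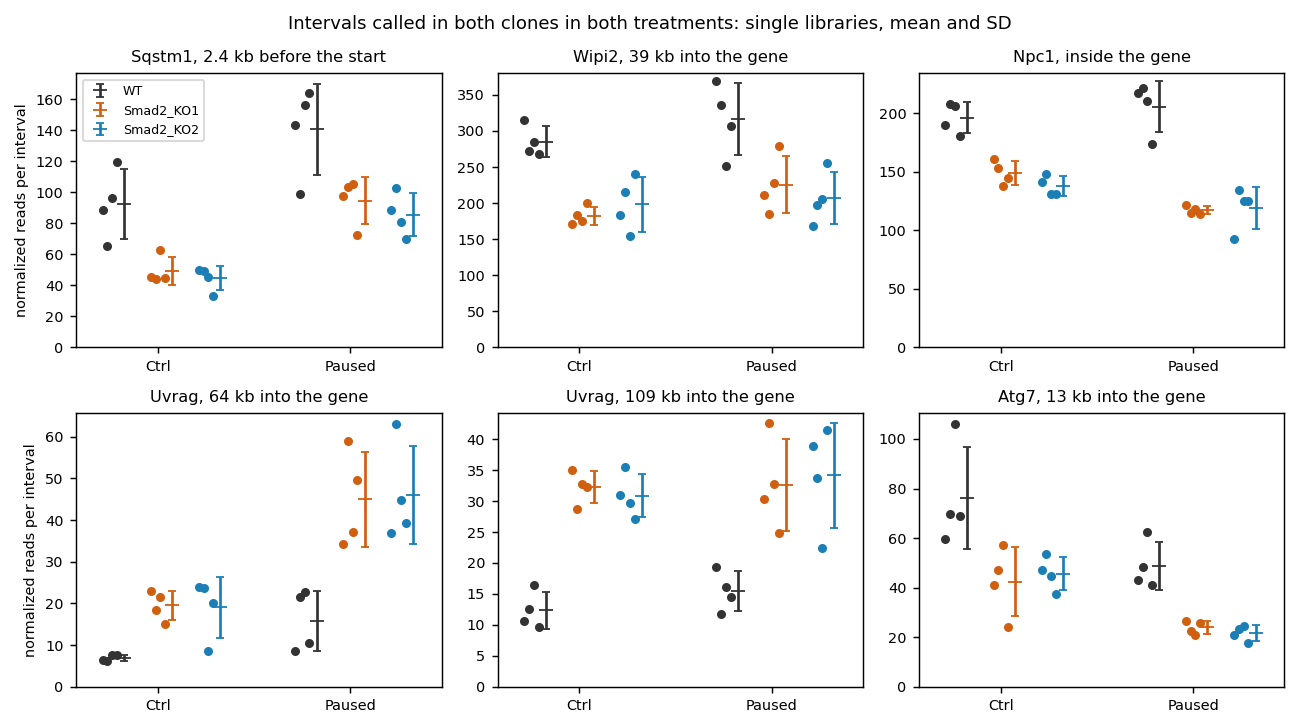
Normalized reads of each library (points) with the mean and SD of 4 (bars) at 6 of the 11 intervals called in both clones in both treatments; the y axes start at 0 and differ between panels, and Ctrl and Paused come from tables normalized separately. Sqstm1, Wipi2, Npc1 and Atg7 are lower in both clones, and the intervals of Uvrag higher.

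The authors' deposited table compares the 8 knockout libraries together with the 4 WT libraries. In it 39 member intervals had a false discovery rate under 0.05 in Ctrl (25 higher, 14 lower), or 8.11% against a background of 12.2%. In Paused there were 112 (65 higher, 47 lower), or 23.1% against 21.6%. All 21 and all 60 intervals called here in both clones were among them.

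The treatments were compared as a description. Intervals of the Ctrl and Paused tables were paired if each covered at least 50% of the other, 1 partner per interval, which left 349 matched member intervals past the filter (a WT mean of 10 or more in either table). The value is the log2 difference of the WT means, Paused minus Ctrl, and since scaling to equal read totals lowers the median of all matched intervals from 0.09 to -0.08, differences are given relative to that median ("relative difference"). The members' median was 0.22 log2, a relative difference of 0.13. At their 43 start intervals it was 0.34, a relative difference of 0.24, against 0.20 for all protein-coding starts. Of the 43, 42 (97.7%) were above the median of all intervals, as were 84.8% of 12264 starts of all protein-coding genes. At 34 of the 43 (79.1%, all starts 64.7%) the relative difference was larger in WT than in either clone, and at 1 (Lipa; 2.33%, all starts 16.5%) it was smaller than in both. The clones' own relative medians at these starts were 0.12 in Smad2_KO1 and 0.11 in Smad2_KO2, with 0.12 and 0.09 for all starts. Over the 13 member intervals with identical bounds in both tables the median was 0.07 log2 against 0.14 for all such intervals, so there members were not above the rest.

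All 4 Paused libraries were above all 4 Ctrl libraries at 71 member intervals in WT (20.3%, background 14.4%), and below at 9 (2.58%, background 5.82%). At the starts, 17 of 43 did not overlap and were higher (39.5%, background of all starts 31.1%), and 0 were lower (background 0.84%). With equal read totals, 39 member intervals were higher (11.2%, background 7.48%) and 20 lower (5.73%, background 11.3%), and 7 of 43 starts were higher (16.3%, background 13%) and 0 lower (background 2.99%).

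**Figure D4:**
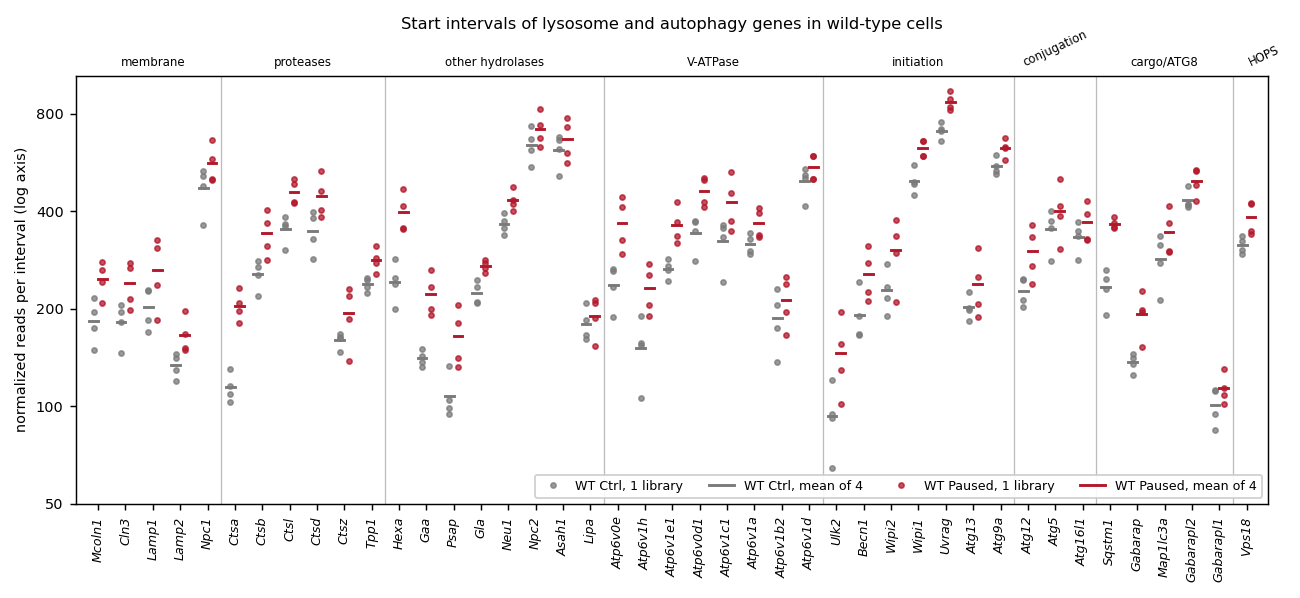
Normalized reads (y axis, log scale) of each WT library in Ctrl (grey) and Paused (red) at the 43 matched member start intervals, ordered by role, with the mean of 4 as a bar. The Paused mean is above the Ctrl mean at each. The libraries do not overlap at 17 of the 43, among them Ctsa, Hexa, Gaa and Sqstm1, and overlap at the others.

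Single hydrolase genes had the starts with the widest differences. As roles, the 6 proteases had a median relative difference of 0.27 and the 8 other hydrolases 0.17, beside 0.20 for all protein-coding starts. The Ctsa start, also inside Neurl2, had 130.3, 116, 103 and 109 in Ctrl and 232, 181, 197 and 208 in Paused, a relative difference of 0.74, and 0.74 in Smad2_KO1 and 0.69 in Smad2_KO2. Hexa, the alpha subunit of hexosaminidase, had 249, 238, 199 and 285 in Ctrl and 467, 354, 352 and 415 in Paused (0.61); its interval also lies inside Tmem202. Gaa had 151, 137, 133 and 143 in Ctrl and 264, 192, 199.6 and 233 in Paused (0.56). At these 3 genes every Paused WT library was above every Ctrl WT library, also with equal read totals. Psap, the precursor of the saposins, had 134, 95.0, 98.6 and 105 in Ctrl and 181, 141, 133 and 205 in Paused (0.51), where 1 Ctrl library (133.5) was above the lowest Paused library (132.8). At the other end of the other hydrolases, Lipa had 166, 185, 161 and 208 in Ctrl and 208, 154, 188 and 213 in Paused (-0.01) and Asah1 a relative difference of 0.01.

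Sqstm1 led the autophagy genes, with 248, 231, 192 and 264 in Ctrl and 369, 355, 384 and 359 in Paused at its start, a relative difference of 0.55, and 0.47 in Smad2_KO1 and 0.51 in Smad2_KO2. Its Paused libraries agreed closely and did not overlap with Ctrl. Ulk2 had 0.55, Gabarap 0.40, Atg12 0.31 and Becn1 0.33, while Atg9a (0.10), Atg5 (0.09) and Gabarapl1 (0.08) stayed near the median of all intervals with overlapping libraries. Among V-ATPase subunits the relative difference ran from 0.05 at Atp6v1d to 0.54 at Atp6v0e, whose libraries had 262, 234, 188 and 265 in Ctrl and 444, 325, 296 and 413 in Paused. The membrane proteins ran from 0.16 (Npc1) to 0.34 (Mcoln1). Median relative differences of the start intervals by role were 0.32 for the 8 V-ATPase genes, 0.29 for the 5 membrane proteins, 0.27 for the 6 proteases, 0.24 for the 7 initiation genes, 0.18 for the 5 cargo and ATG8 genes, 0.17 for the 8 other hydrolases and 0.09 for the 3 conjugation genes. The median over all protein-coding starts was 0.20, so the cargo and ATG8, other hydrolase and conjugation genes were below it.

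**Figure D5:**
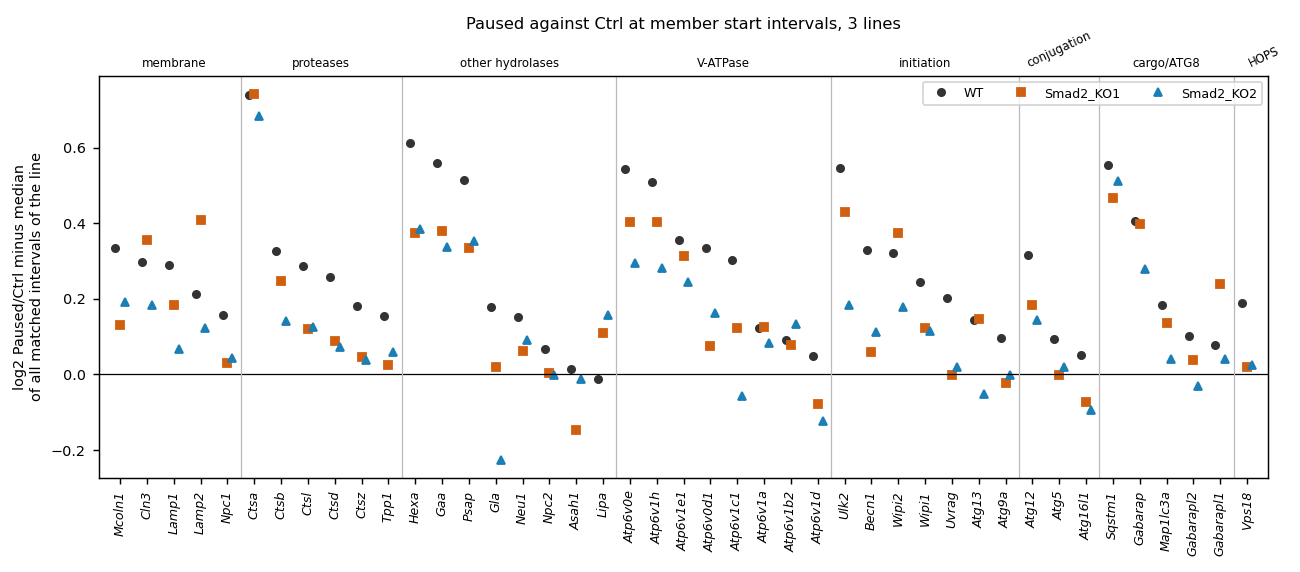
Log2 difference of the group means, Paused minus Ctrl, minus the median of all matched intervals of the line (y axis), at the 43 member start intervals by role, for WT (circles), Smad2_KO1 (squares) and Smad2_KO2 (triangles). Ctsa is highest in all 3 lines (0.74, 0.74 and 0.69), and WT lies above both clones at 34 of 43 genes.

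The 8 members with TCACGTGA in their promoter window had a median relative difference of 0.32, from 0.12 (Atp6v1a) to 0.74 (Ctsa). The 25 without it that had both a listed promoter and a matched start interval had 0.20. Over all genes with both, the medians were 0.23 with the palindrome (207 genes) and 0.20 without (9910 genes). All WT Paused libraries were above all WT Ctrl libraries at 50% of members with it and 48% without (all genes 29.0% and 30.8%). With equal read totals these were 12.5% and 24% (all genes 12.6% and 12.5%). The difference by motif was not tested, and the motifs of Ctsa, Atp6v1a and Gla lie outside the intervals measured. In the clones the members with the palindrome had 0.13 in Smad2_KO1 and 0.17 in Smad2_KO2, and those without 0.12 and 0.09. Mcoln1, Cln3, Ctsd, Atp6v0d1 and Atp6v0e, whose motif lies inside the interval, had 0.34, 0.30, 0.26, 0.33 and 0.54, and Lamp1, with 4 copies of CACGTG, 0.29.

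The 5 highest differences among matched intervals with a WT mean of 20 or more in either treatment lay away from starts. In the flank of Ctsl, 12816 bases from its start (chr13:64357604-64357804), WT libraries had 8.54, 13.4, 16.4 and 14.0 in Ctrl and 42.1, 29.0, 30.2 and 35.8 in Paused, a relative difference of 1.23. Upstream of Ulk2 (chr11:61859263-61859463) they had 19.2, 12.5, 10.9 and 9.71 in Ctrl and 46.4, 25.8, 28.1 and 30.5 in Paused (1.16). Inside Npc2, which passes cholesterol to NPC1, they had 9.61, 11.6, 6.57 and 9.71 in Ctrl and 22.7, 25.8, 25.9 and 19.9 in Paused (1.15), and in its flank (chr12:84753814-84754014) 21.4, 25.1, 35.0 and 33.4 in Ctrl and 64.8, 51.5, 69.0 and 80.8 in Paused (1.09). At position -4687 from the start of Ctsa (chr2:164828085-164828285, also inside Spata25), matched to the Paused interval that was lower in the clones, they had 51.3, 55.5, 61.3 and 58.2 in Ctrl and 155, 118, 114 and 143 in Paused (1.12). In WT no Paused library overlapped with Ctrl at any of these 5, with either scaling. They were picked for this same WT difference, so the lack of overlap follows largely from the pick. The intervals at Ctsl, at Ulk2 and inside Npc2 reached a WT mean of 20 in Paused alone. The paired Ctrl and Paused intervals shared 54.2% of their bases at Ctsa, 73.1% inside Npc2 and 75.6% at Ctsl. They shared 93.5% in the flank of Npc2 and 97.0% at Ulk2. Where fewer bases are shared, the difference compares partly different windows. In the clones the relative differences at these 5 ran from 0.90 to 1.25 in Smad2_KO1 and from 0.52 to 1.55 in Smad2_KO2.

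Among matched intervals with a WT mean of 20 or more in either treatment, the lowest relative differences were inside genes. These too were picked for their WT difference, so a lack of overlap in WT follows largely from the pick. An interval 4312 bases into Lamp2 (chrX:38452048-38452248) had 62.0, 44.8, 37.2 and 60.4 in Ctrl and 39.9, 24.7, 24.8 and 17.2 in Paused, a relative difference of -1.01, with 1 Paused library (39.9) above the lowest Ctrl library (37.2). Inside Mcoln1 (chr8:3510250-3510450) the libraries had 76.9, 82.4, 66.8 and 69.0 in Ctrl and 54.0, 32.2, 45.3 and 42.4 in Paused and did not overlap (-0.84). The Atg7 interval that was lower in the clones had -0.73, and -0.90 in Smad2_KO1 and -1.16 in Smad2_KO2. A weaker interval inside Atp6v1a (chr16:44125904-44126104), picked after its values were seen, had 19.2, 18.8, 15.3 and 22.6 in Ctrl and 8.64, 8.59, 7.55 and 3.97 in Paused, without overlap; the relative difference was -1.38 in WT, -1.07 in Smad2_KO1 and -1.56 in Smad2_KO2. Intervals inside Uvrag (chr7:99037483-99037683) and Asah1 (chr8:41389877-41390077, also inside Frg1) had -0.66 and -0.66, without overlap in WT. The paired Ctrl and Paused intervals shared 62.2% of their bases at Uvrag and 82.1% at Lamp2. They shared 94.0% at Atg7, 98.5% at Mcoln1 and 100% at Asah1.

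A list of 65 further lysosome and autophagy genes, among them Atp6v0c, Rb1cc1, Pik3c3 and Rab7, was measured in the same way. In Ctrl 32 of 721 tested intervals were called (23 higher, 9 lower; 4.44%) and in Paused 85 of 684 (61 higher, 24 lower; 12.4%), against the backgrounds of 7.15% and 13.9%. With DESeq2 size factors the splits were 18 and 17 in Ctrl and 43 and 55 in Paused. None of their 63 start intervals was called in Ctrl (background of all starts 3.83%), and 5 of 63 were in Paused, all lower (7.94%, background 14.1%). Their relative difference between treatments in WT was 0.03 over 499 matched intervals, where the 47 genes had 0.13, and 0.29 at 58 starts, where the 47 genes had 0.24.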

How the data were processed

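The deposited tables, 1 for Ctrl and 1 for Paused, hold 1 row per interval of 201 bases and 12 libraries. Per the values and the file headers, the authors divided the reads of each interval by 1 factor per library, which gives a normalized signal with 2 decimals. Read counts were recovered from these deposited values (100.0% whole within 0.015 normalized reads; in 4 libraries, Ctrl Smad2_KO2 replicates 1 and 4, Paused Smad2_KO1 replicate 4 and Paused Smad2_KO2 replicate 1, the factor is so near 1 that low values say little). The tables also hold the authors' log2 fold change of 8 knockout against 4 WT libraries, and its p-value and false discovery rate, as deposited. The submitters' processing notes name FastQC, Trim Galore, Bowtie2 2.4.1, MACS3 3.0.3, DiffBind 3.16.0 and build mm10. Duplicate removal, read shifting for the transposase and mitochondrial filters are not given in the sources used here, and each can change weak intervals most.

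Intervals with 10 or more normalized reads in at least 4 libraries were tested with limma 3.58.1 (R 4.3.3, trended variance) on log2(value + 1), all 12 libraries of a table in 1 fit, Smad2_KO1 and Smad2_KO2 each against WT, with Benjamini-Hochberg adjustment over all intervals. Differences on this scale understate changes of weak intervals. Alternatives were DESeq2 1.42.0 size factors, TMM factors, library totals, edgeR 4.0.16 (quasi-likelihood) and DESeq2 tests on recovered reads, a pseudocount of 0.1, no filter, gene bodies alone, a replicate block and leaving out each library. The script was tested on simulated data. Ctrl and Paused were normalized separately, so differences between them carry no test.

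The members, their roles, the other pathway genes and the tests were chosen with earlier results of these data known. Named were the start intervals called per role (made up to 2 by the strongest), the 10 called intervals per treatment with the largest smaller change of the clones, the 5 highest and 5 lowest WT differences between treatments among intervals with a WT mean of 20 or more, and members with TCACGTGA; others were picked after their values were seen. All 65 other pathway genes matched by symbol. Replicates A to D of the labels are written 1 to 4.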

Additional observations from a re-analysis of the deposited data

Results flagged for a closer look

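Groups of 4 libraries were searched for a single library far from the others (Dixon's criterion at 95%). Of 252 groups at the named intervals and for depth, 7 had one, where chance gives about 12.6, or 1 in 20. All were in Ctrl. In WT, Wipi1 (chr11:109606849-109607049) had 1 library at 5.34 normalized reads with the others from 8.63 to 8.96, the Gabarapl2 start (chr8:111940550-111940750) 1 at 478.52 with the others from 413.98 to 420.58, and Uvrag (chr7:98924621-98924821) 1 at 10.75 with the others from 4.27 to 4.38. In Smad2_KO1, Npc2 (chr12:84769607-84769807) had 1 library at 9.24 with the others from 12.8 to 13.4, Atg5 (chr10:44360690-44360890) 1 at 25.3 with the others from 17.3 to 17.9, and Sqstm1 (chr11:50213079-50213279) 1 at 62.78 with the others from 44.2 to 45.3. The last is the highest knockout library at that interval and still under every WT library. In Smad2_KO2 the Lamp1 start (chr8:13159098-13159298) had 1 library at 231.48 with the others from 203.98 to 206.31. No named matched interval had all WT libraries moving one way with treatment and all libraries of a clone the other way.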

How the results depend on the processing

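The counts of called member intervals, 21 in Ctrl and 60 in Paused, came to 17 and 79 with edgeR and to 12 and 48 with DESeq2. Averaging knockout libraries by number, chosen after seeing the data and called from 1 test rather than in both clones, gave 40 and 85. Gene bodies alone gave 19 and 49. Leaving out 1 library at a time gave 13 to 23 in Ctrl (13 without Smad2_KO2 replicate 4) and 41 to 69 in Paused. Replicate numbers did not pair WT with the clones (mean correlation of deviations over the 8 WT-to-clone pairs of 1 number 0.014 in Ctrl and 0.026 in Paused), and a replicate block gave 23 and 69. Between the clones, libraries of 1 number correlated by up to 0.109 in Ctrl and 0.187 in Paused. Between the clones 0 were called under each alternative except averaging, which leaves no such comparison. The split of higher and lower calls, 13 and 8 in Ctrl, was 7 and 10 with size factors or TMM factors, 15 and 8 with library totals, 5 and 12 with edgeR and 3 and 9 with DESeq2. In Paused 40 and 20 became 34 and 44, 34 and 40, 48 and 13, 33 and 46, and 16 and 32. The cause of the other shifts was not tested. Of 26 named called intervals, 20 to 26 kept their call under each alternative that used all libraries, and none of them changed direction. The Ctsb interval could not be tested without any 1 of the WT libraries, since it then fails the filter.

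The median WT difference between treatments, 0.22 log2, was 0.057 with recovered reads at equal library totals, 0.13 minus the median of all intervals, 0.074 with identical bounds (13 intervals) and 0.19 with gene bodies alone. It ranged from 0.19 to 0.25 without 1 library. Depth limits weak intervals: near 10 reads, counting error alone is a large share of the value.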
